A study of Rattus norvegicus with 6 samples.

Results

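Dietary fat is taken up in the jejunum and leaves it as chylomicrons, and 10 genes of that route were followed here through all of their array probes. They were listed by their known role: Cd36, Fabp1, Fabp2, Mogat2, Dgat1, Mttp, Apob, Apoa1, Apoa4 and Apoc3. These genes are 10 of the 13837 that could be named through the RefSeq accession of a probe, and they have 18 of the 41012 probes that are not controls. All 18 probes passed the filter on dim probes, which asks that 1 group or both have a signal well above background throughout.

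The RNA came from washed jejunum of male Sprague-Dawley rats aged 6 weeks. Control rats were kept at 25°C without shaking. Rats of the S3d group were heated at 35°C and vibrated at 0.1 g, for 2 h on each of 3 days. Each group has 3 samples on 1-colour Agilent arrays, and each sample pools the RNA of 3 rats by the series' design text, out of 10 rats per group by the sample labels. The study's methods give a smaller number of rats per group, too few for pools that share no animal, so the samples may share rats. The p-values measure the spread between these pooled samples. RNA of a whole piece of jejunum holds many cell types, so fewer enterocytes and less RNA per enterocyte cannot be told apart.

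In the enterocyte, long-chain fatty acids cross the brush border, partly with the help of CD36, and are carried through the cytosol by the fatty acid binding proteins FABP1 and FABP2. The enzymes MOGAT2 and DGAT1 join them to monoacylglycerol and diacylglycerol, which rebuilds triglyceride at the endoplasmic reticulum. The microsomal transfer protein MTTP then loads this triglyceride onto apolipoprotein B, and the growing particle takes on APOA1, APOA4 and APOC3 before it leaves through the Golgi. The jejunum is the main site of this work, and the small fatty acid binding proteins and apolipoproteins are among its most abundant messages.

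The stretch from 250 bases before to 50 bases after the transcription start is given in RefSeq (rat build GRCr8) for 4 of the members, Apoa4, Fabp1, Fabp2 and Cd36. These stretches are shown because the factors known to bind such sequences are among the pathway genes measured below. Capitals mark exact matches, on either strand, to the TATA box TATAAA, to the GATA factor motif AGATAA and to the HNF4 motif forms AAAGGTCA and AAAGTCCA.
Apoa4, chr8:55435529-55435828, plus strand: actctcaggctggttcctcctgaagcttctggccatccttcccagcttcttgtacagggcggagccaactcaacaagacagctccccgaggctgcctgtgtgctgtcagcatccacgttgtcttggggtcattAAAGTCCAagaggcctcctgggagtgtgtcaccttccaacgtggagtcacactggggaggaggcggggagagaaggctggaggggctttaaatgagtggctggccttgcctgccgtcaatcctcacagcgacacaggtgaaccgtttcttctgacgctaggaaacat
Fabp1, chr4:104749090-104749389, plus strand: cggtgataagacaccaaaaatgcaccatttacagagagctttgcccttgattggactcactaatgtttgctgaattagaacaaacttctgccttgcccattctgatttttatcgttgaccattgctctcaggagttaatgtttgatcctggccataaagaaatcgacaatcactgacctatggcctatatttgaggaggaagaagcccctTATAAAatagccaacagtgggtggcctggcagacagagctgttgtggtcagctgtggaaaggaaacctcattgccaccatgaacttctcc
Fabp2, chr2:213724379-213724678, plus strand: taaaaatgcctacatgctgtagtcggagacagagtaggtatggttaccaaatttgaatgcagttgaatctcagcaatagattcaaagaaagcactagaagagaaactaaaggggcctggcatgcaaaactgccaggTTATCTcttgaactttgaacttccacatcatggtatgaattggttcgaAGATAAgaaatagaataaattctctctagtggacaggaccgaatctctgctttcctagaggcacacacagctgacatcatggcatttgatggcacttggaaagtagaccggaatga
Cd36, chr4:18246332-18246631, plus strand: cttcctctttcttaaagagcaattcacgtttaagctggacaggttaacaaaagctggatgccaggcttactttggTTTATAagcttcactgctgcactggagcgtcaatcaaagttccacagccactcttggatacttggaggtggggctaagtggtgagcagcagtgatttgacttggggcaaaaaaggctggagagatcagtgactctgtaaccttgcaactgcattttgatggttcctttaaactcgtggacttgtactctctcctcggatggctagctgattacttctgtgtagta
The Apoa4 stretch holds AAAGTCCA from -117 to -110, a form present in 1.37% of the 33469 promoter stretches of this length. The Fabp2 stretch holds AGATAA at 2 places, from -114 to -109 on the minus strand and from -66 to -61 on the plus strand, and 11.6% of all stretches hold it. The Fabp1 stretch has TATAAA from -40 to -35, and the Cd36 stretch has it from -175 to -170 on the minus strand, against 14.2% of all stretches. AAAGGTCA, which 1.43% of all stretches hold, was in none of the 4. The CAAT box CCAAT was searched too and is left in lower case. It is held by 37.5% of all stretches, and here by Fabp1 from -201 to -197 and by Fabp2 from -76 to -72, both on the minus strand. These are matches of letters and were not tested as binding sites.

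The 2 deposited sources of values carry opposite group labels. Each of the 6 columns of the quantile-normalized table ranks its probes as the scanner file of the same number in the other group does (Spearman's rho of at least 0.99995 across probes, against 0.941 to 0.948 for its own file). No sample was reassigned, and the groups are named by the scanner files, as the control label and the S3d label. The 3 arrays of each label share 1 slide and 1 scan, so slide, scan and group cannot be told apart. The processed signal also differed, with a 75th percentile of 414 to 430 under the control label and of 1456 to 1566 under the S3d label. S3d replicate 1 stands apart by pancreatic acinar messages. Amy2a3, an amylase picked as an example after the values were seen, was at 8.01 there on a log2 scale relative to the array, against -4.45 and -4.80 on the other S3d arrays and -7.84 to -6.56 under the control label. The counts of called members, pathway genes and markers were therefore also made without that array.

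Of the 10 members, 9 changed at an adjusted p under 0.05 on their brightest probe (limma), 1 with a higher and 8 with a lower signal under the S3d label. Of all 11498 genes tested in this way 73.1% changed, 35.9% higher and 37.2% lower. Without S3d replicate 1 the members gave the same counts, 1 higher and 8 lower. Signals are given as log2 of the processed signal relative to the 75th percentile of its array, and differences as the S3d label minus the control label. The deposited table holds these arrays under the other label and with another scaling. By its labels the sign on the brightest probe turned for Apoa1, Apoc3, Fabp1, Dgat1 and Cd36, and did not for Apoa4, Apob, Mttp, Fabp2 and Mogat2. The fold changes the study lists for its own genes run as that table does, and the study reports PCR that followed them in direction. Which labels are right was not tested here. Over the 18 probes, 15 changed, 2 higher and 13 lower, where 73.6% of all 31400 tested probes changed (39.3% higher and 34.3% lower). The groups did not overlap on 16 of the 18, which was also the case for 79.2% of all tested probes.

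**Figure D1:**
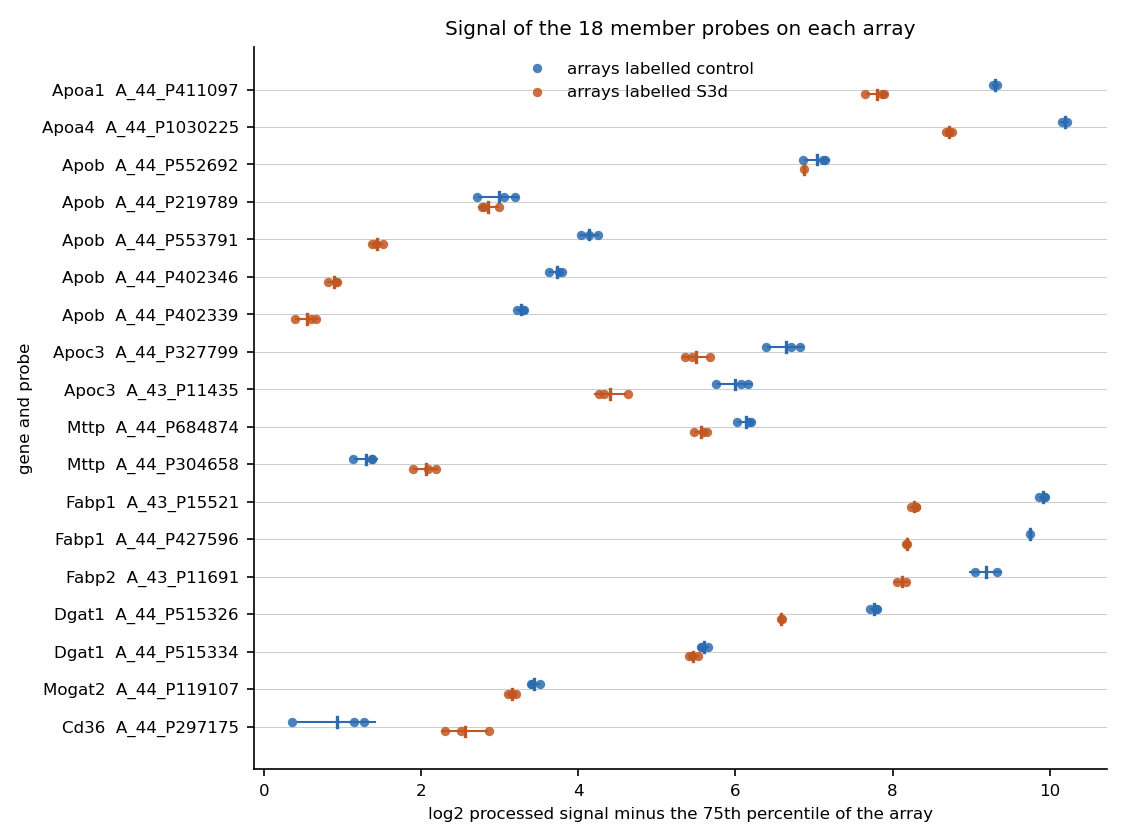
Log2 signal relative to the 75th percentile of the array (x axis) for each of the 18 probes of the 10 genes (y axis). Dots are single arrays after spots with an outlier flag were dropped, upright bars are group means and horizontal lines are SDs. Most probes lie further left under the S3d label, while Cd36 and the second Mttp probe lie further right, and the 5 probes of Apob differ among themselves.

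Cd36, the fatty acid translocase of the brush border, was the member that was higher. Its probe gave 0.36, 1.14 and 1.27 under the control label and 2.50, 2.86 and 2.30 under the S3d label. The lowest array labelled S3d lay more than the whole control range above the highest control array, although control replicate 1 was well below the other 2. The difference was 1.63 ± 0.27 (SE, n = 3 per group, limma), a 3.1-fold higher signal with an adjusted p of 0.00225. The probe is spotted 10 times on each array, and the spots of an array had SDs of 0.059 to 0.092, so nearly all of the spread lies between arrays. Before scaling the processed signals were 532, 943 and 1037 against 8271, 11276 and 7710. The deposited table gave -1.75 by its own labels (adjusted p = 0.00232), the same arrays with the sign turned.

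Fabp1, the liver-type fatty acid binding protein that is also abundant in the proximal intestine, was lower on both of its probes. On the brighter probe it stood at 9.87, 9.95 and 9.93 under the control label and at 8.30, 8.24 and 8.30 under the S3d label. This gave a difference of -1.64 ± 0.060 (SE, n = 3 per group), with an adjusted p of 1.43e-05 (limma). The second probe lost 3 spots to outlier flags and rests on 1 array labelled control, at 9.75, and 2 labelled S3d, at 8.17 and 8.19. Its difference was -1.57.

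Fabp2, the intestinal form that binds long-chain fatty acids, was read on 1 probe. It gave 9.05 and 9.33 under the control label, where replicate 2 was dropped by its flag, and 8.18 and 8.06 under the S3d label, again without replicate 2. The groups did not overlap, and the difference was -1.07 ± 0.13 (SE, n = 2 per group, limma, adjusted p = 0.00292). Before scaling the order was the other way, with 219682 and 276645 against 421065 and 418138.

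Fabp6, the ileal bile acid binding protein, and Fabp4, the adipocyte form, are relatives outside the 10 genes. Fabp6 was lower by the same labels, from a mean of -0.58 to -3.28, a difference of -2.70 (adjusted p = 0.000188, limma), and Fabp4 differed by -1.37 (adjusted p = 0.000251). Both lists of markers that hold them are described below.

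Mogat2, which starts the monoacylglycerol route of triglyceride synthesis, differed least among the members that passed the test. It gave 3.42, 3.51 and 3.40 under the control label and 3.2, 3.16 and 3.1 under the S3d label. The groups did not overlap and the difference was -0.29 ± 0.065 (SE, n = 3 per group), a 1.22-fold lower signal with an adjusted p of 0.00823 (limma).

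Dgat1, which adds the last fatty acid to make triglyceride, gave a different answer on each of its probes. The brighter probe stood at 7.72, 7.8 and 7.79 under the control label and at 6.58 and 6.59 under the S3d label, where replicate 2 was dropped. Its difference was -1.18 ± 0.072 (SE, n = 3 and 2), with an adjusted p of 0.000100 (limma). The other probe stood at 5.57, 5.65 and 5.57 against 5.52, 5.41 and 5.45. It differed by -0.14 with a 95% interval of -0.30 to 0.02 (adjusted p = 0.104), so a difference of the first probe's size lies outside its interval. The result of this dimmer probe depended on the scaling. It was called higher under quantile normalization (0.42) and lower under median centring (-0.32).

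Mttp, the transfer protein without which no chylomicron is made, moved in opposite directions on its probes. The brighter probe gave 6.02, 6.2 and 6.17 under the control label and 5.59, 5.64 and 5.47 under the S3d label, a difference of -0.56 ± 0.083 (SE, n = 3 per group, limma, adjusted p = 0.00128). The dimmer probe gave 1.13, 1.37 and 1.37 against 2.08, 2.19 and 1.89, a difference of 0.76 ± 0.11 (adjusted p = 0.00119). Neither pair of groups overlapped, so the probes of this gene disagree by more than the spread between arrays. Within an array the dimmer minus the brighter probe was -4.84 ± 0.043 (SD) under the control label and -3.51 ± 0.063 under the S3d label.

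Apob, the structural protein of the chylomicron, has 5 probes that fell into 2 sets. On 3 of them the log2 difference was -2.71 to -2.84, and on the other 2 no difference passed the test. The first set held the largest differences among the member probes. All 5 probes carry the same accession, NM_019287, and their positions in the transcript were not used here.

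The first of the 3 probes, A_44_P402346, gave 3.63, 3.75 and 3.79 under the control label and 0.81, 0.92 and 0.93 under the S3d label. The difference was -2.84 ± 0.075 (SE, n = 3 per group), a 7.16-fold lower signal with an adjusted p of 1.01e-05 (limma). A_44_P553791 gave 4.03, 4.13 and 4.25 against 1.51, 1.37 and 1.42, a difference of -2.71 ± 0.082. A_44_P402339 gave 3.21, 3.29 and 3.31 against 0.39, 0.66 and 0.59, a difference of -2.73 ± 0.089. The 2 groups lay far apart on each of the 3 probes, with SDs of 0.052 to 0.14 within a group.

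On the brightest Apob probe, A_44_P552692, the control label gave 6.87, 7.12 and 7.14, and the only S3d array left after outlier flags gave 6.88. The difference of -0.16 has a 95% interval of -0.60 to 0.27 (adjusted p = 0.393, limma), and the lone array was taken to vary like the other group. A_44_P219789 kept all arrays, at 2.71, 3.06 and 3.19 against 2.77, 2.99 and 2.80, with overlapping groups and an interval of -0.48 to 0.22. Both intervals leave out a difference of the size seen on the other 3 probes. Within an array, A_44_P402346 minus A_44_P219789 was 0.74 ± 0.17 (SD) under the control label and -1.97 ± 0.10 under the S3d label. A single scaling factor per array cancels in this change of -2.71 between probes. The pair was picked after the values were seen, so it is given with no test.

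**Figure D2:**
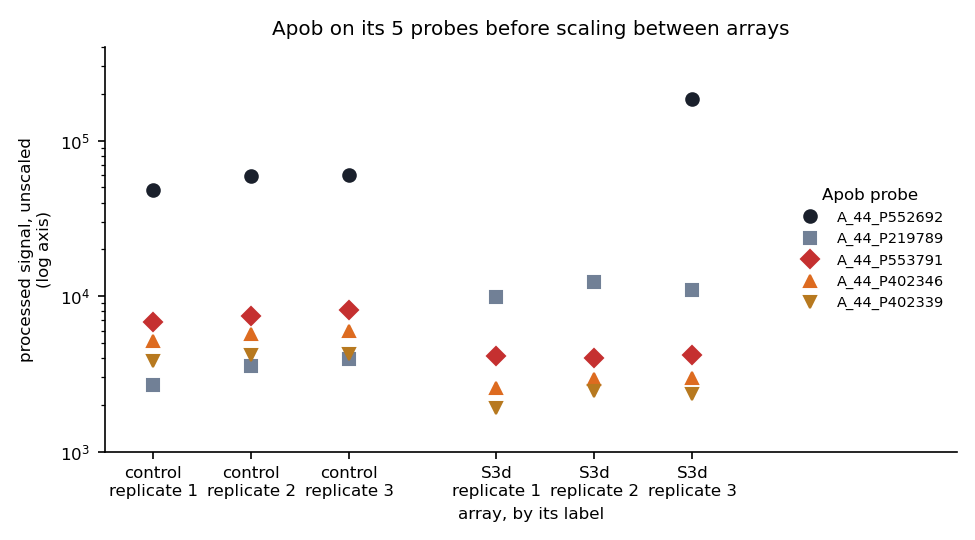
Processed signal before any scaling between arrays (log axis) on each array for the 5 probes of Apob. Single spots are plotted, without the 2 spots of A_44_P552692 dropped by their outlier flag. 3 probes (diamonds and triangles) lie lower under the S3d label, between 1909 and 4193 against 3843 to 8187, while A_44_P219789 (squares) lies higher, at 9913 to 12336 against 2702 to 3929.

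Apoa1 and Apoa4 are the apolipoproteins that the enterocyte adds to the surface of the particle, and their probes were lower by nearly the same amount. Apoa1 gave 9.29 and 9.33 under the control label, where replicate 1 was dropped by its flag, and 7.65, 7.89 and 7.87 under the S3d label. The difference was -1.504 ± 0.10 (SE, n = 2 and 3), with an adjusted p of 0.000142 (limma). Apoa4 gave 10.22 and 10.16, again without control replicate 1, against 8.72, 8.76 and 8.68. Its difference was -1.47 ± 0.073 (adjusted p = 5.46e-05).

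Apoc3, an inhibitor of lipoprotein lipase that travels on the particle, lies beside Apoa1 and Apoa4 on rat chromosome 8. Its brighter probe gave 6.39, 6.70 and 6.83 under the control label and 5.45, 5.67 and 5.36 under the S3d label, a difference of -1.15 ± 0.14 (SE, n = 3 per group, limma, adjusted p = 0.000596). The other probe gave 5.75, 6.07 and 6.17 against 4.26, 4.63 and 4.32, a difference of -1.59 ± 0.15 (adjusted p = 0.000186). Both probes separated the groups without overlap.

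Most of these probes are very bright, and on these arrays the difference between the labels moved with brightness. Of the 10 brightest-probe values, 6 belong to the brightest 1% of the tested probes and 9 to the brightest 10%. Of the 314 probes in that 1%, 92.7% changed, 91.1% lower and 1.59% higher, with a median difference of -1.02. Of the 3140 in the brightest 10%, 79.9% changed, 64.3% lower and 15.7% higher, and the median was -0.49, against 0.09 over all tested probes. The median of the 10 members was -1.11. The part of the brightness in the members' differences was not tested apart from the alternatives that follow.

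**Figure D3:**
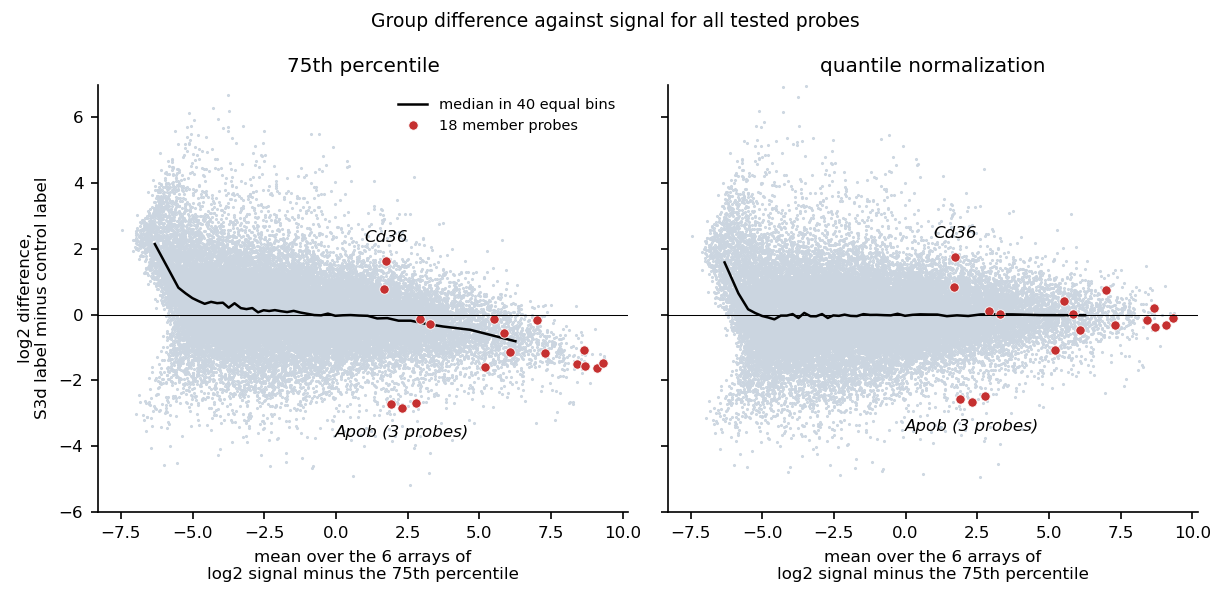
Log2 difference, S3d label minus control label, against the mean relative signal for all 31400 tested probes (grey), with the 18 member probes in red and the median in 40 equal bins as a black line. Left, scaling by the 75th percentile. Right, quantile normalization. 7 points on the left and 5 on the right lie outside the axis. The black line slopes down at high signal on the left and is flat there on the right, and with it most of the bright member probes move towards 0. The brightest Apob probe (0.74) and the dimmer Dgat1 probe (0.42) instead move from under 0 to further above it. Cd36, the dimmer Mttp probe and 3 Apob probes stay away from 0.

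Quantile normalization, which forces the same distribution on every array, brought the median of the brightest 1% to -0.01. Under it the members called fell to 5 of 10, with Apob on its brightest probe (0.74) and Cd36 (1.75) higher and Apoc3 (-0.48), Fabp1 (-0.32) and Dgat1 (-0.32) lower, and 70.2% of all probes were called. Apoa1 was at -0.16 (adjusted p = 0.322, limma) and Apoa4 at -0.12 (adjusted p = 0.365), neither past the threshold. This scaling gives equal ranks equal values, so a change that keeps the ranks cannot show. From the top of an array, with flagged spots kept, Apoa4 ranked 1 to 3 under the control label and 1 to 6 under the S3d label. Fabp2 was at 0.19, Mttp on its brighter probe at 0.03 and Mogat2 at 0.02, all on the other side of 0 and not called. Cd36, the dimmer Mttp probe (0.85) and the 3 Apob probes (-2.48 to -2.66) kept both sign and call.

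Without any scaling the median over all tested probes was 1.93, and the members are best read against it. Set against that median Cd36 was at 1.55 and the 3 Apob probes were at -2.79 to -2.93. Scaling by a single factor per array shifts the differences of all probes nearly alike. Positions against the median therefore repeat those of the values scaled in that way, and they are no separate test. These 3 Apob probes were also under 0 as they stood, at -0.86 to -0.99. All other members had a positive difference on their brightest probe before scaling, from 0.21 for Fabp1 to 1.72 for Apob, and all of these were under the median of all probes. Over up to 19 settings on the scanner labels that scale the arrays, 2 of the 18 probes (Cd36 and the dimmer Mttp probe) were higher in each. Several of these settings keep the same differences or only shift them, so their number is no measure of support. In each of these settings 10 were under 0, which are those of Apoa1, Apoa4, Apoc3 and Fabp1, the brighter Dgat1 probe and 3 of Apob. The other 6 took both signs. With normexp background correction 6.28% of all probes were called, the median of all moved to -0.69, and the probes called among the members were Cd36 and the same 3 of Apob. Against that median the brighter probes of Apoc3 (-0.67) and Dgat1 (-0.61) were not lower, and Apoa1 (-0.72) was close to it.

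**Figure D4:**
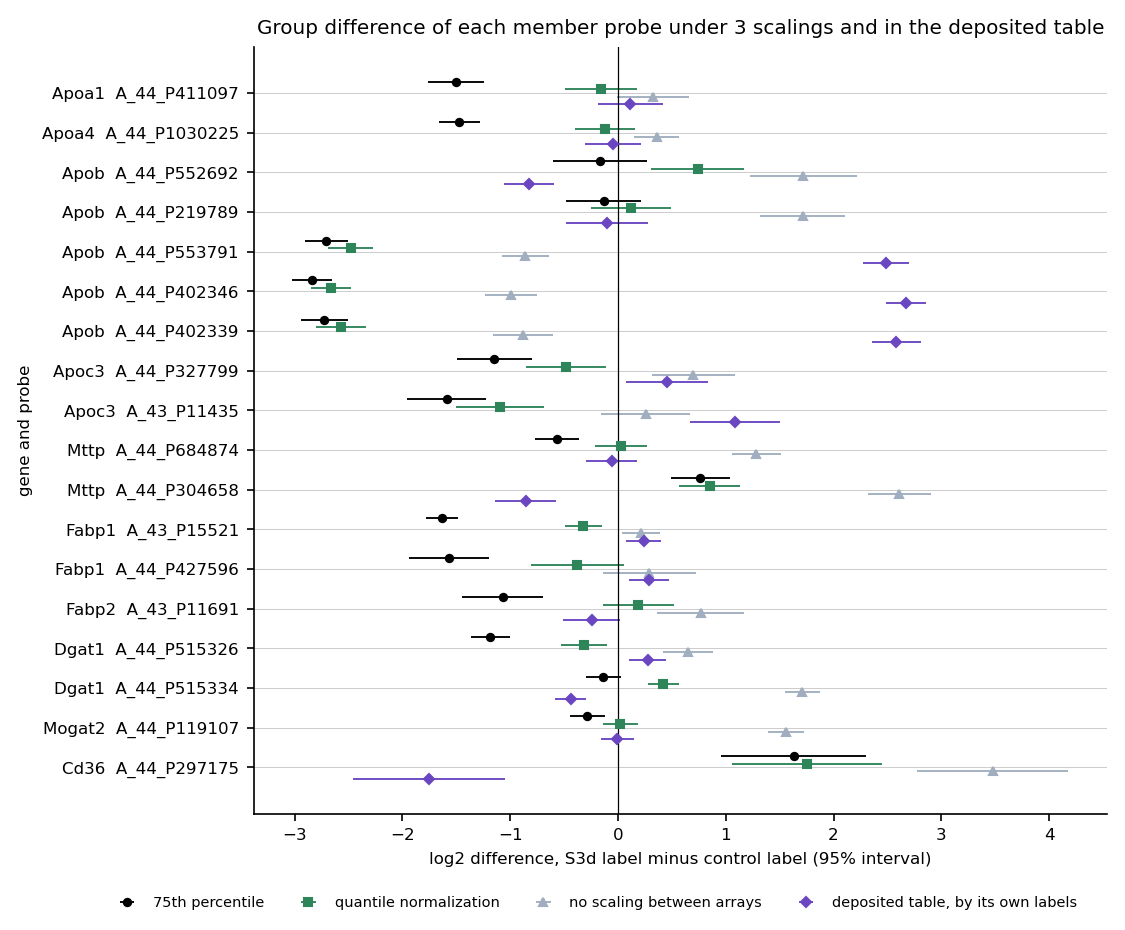
Log2 difference, S3d label minus control label, with its 95% interval (limma), for each of the 18 member probes, under scaling by the 75th percentile (black), under quantile normalization (green), without scaling (grey) and in the deposited table by that table's own labels (purple). The purple points nearly mirror the green ones around 0. The 3 lower Apob probes lie left of 0 in all 3 scanner scalings, and Cd36 lies right of 0 in all of them.

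A wider list of 85 genes of fat absorption, sorted by role, puts the members in their pathway. Of these, 74 are on the array under an accession, 73 were tested and 54 changed at an adjusted p under 0.05 (limma), 17 with a higher and 37 with a lower signal under the S3d label. Their median difference was -0.26, and 73.1% of all tested genes changed, 35.9% higher and 37.2% lower. Without S3d replicate 1 the counts were 19 higher and 36 lower. Without scaling, where the median of all probes was 1.93, 67 were called and 65 of them were higher, so the directions given for single genes are relative to the whole array. Under quantile normalization 42 of the 54 were called in the same direction and 1, the acyl-CoA synthetase Acsl5, in the other.

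At the brush border all 5 listed genes changed, 2 higher and 3 lower. Slc27a2, a very long-chain acyl-CoA synthetase and fatty acid transporter, went from -3.80, -2.76 and -2.11 under the control label to 1.196, 1.77 and 1.36, a difference of 4.33 (adjusted p = 0.000238, limma). Scarb1, the scavenger receptor SR-BI, was higher by 0.50. Got2, the mitochondrial aminotransferase also described as a fatty acid binding protein of the membrane, was lower at -1.15, and Npc1l1, the cholesterol transporter, at -0.79. The signs of these 4 were the same under quantile normalization. Slc27a4, another fatty acid transport protein, was at -0.47 and rests on 1 array labelled control after outlier flags. Its place among the 5 therefore assumes that this array varies like the other group. Under quantile normalization it was at 0.02 and 3 of the 5 genes were called, 2 higher and 1 lower.

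Inside the cell all 6 listed genes of fatty acid binding and activation were lower by the 75th percentile, led by Fabp6 and Fabp4. Under quantile normalization 3 of the 6 were lower and 1 was higher. Of 14 genes of re-esterification tested, 5 were higher and 4 lower. Mogat1 (1.04) and Lpin1, a phosphatidate phosphatase (0.96), were higher, while Soat1, which esterifies cholesterol (-1.15), and Dgat2 (-1.02) were lower. With normexp background correction, where the median of all probes was -0.69, Lpin1 was at -1.30. Mogat1 was at -0.05 there, under 0 but above that median.

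Around lipid droplets 1 of 6 tested genes was higher and 4 lower. Cidea, a droplet fusion protein, was at 0.97, and the lipases Lipe and Mgll were at -0.40 and -0.33. With normexp background correction Cidea was at -0.28, under 0 but above the median of all probes there (-0.69). Plin2, Plin3 and Cideb have no probe under an accession that matched, so they were not tested.

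Of 10 other genes of particle assembly, 2 were higher and 4 lower. Apobec1, the enzyme that edits Apob mRNA and so sets which form of the protein is made, gave 5.29, 5.16 and 4.90 under the control label and 3.11, 3.1 and 3.14 under the S3d label, a difference of -2.002 (adjusted p = 2.95e-05, limma). Tm6sf2, which is needed for lipid loading of the particle, was at -1.56, with values that did not overlap. Both kept their sign under quantile normalization (-1.61 and -0.99). Apoa2 was higher at 2.51 from a low signal of -6.86 to -5.50, and turned to -1.08 with normexp background correction, as did Apoc1 (0.41, then -0.96).

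For the vesicles that carry the particle from the endoplasmic reticulum to the Golgi, 5 of 11 tested genes were higher and 5 lower. Stx5, a Golgi SNARE (1.08), and Sec24b, a coat subunit (0.64), were higher. Vti1a, another SNARE (-0.79), and Sec23a, a coat subunit (-0.48), were lower.

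Of the transcription factors of these genes 10 of 12 were lower and 0 higher, with a median of -0.82. Of all tested genes 37.2% were lower and 35.9% higher. Under quantile normalization 8 were lower and 0 higher, and the deposited table gave 8 higher and 0 lower by its own labels. With normexp background correction 3 were lower and 0 higher, with a median of -0.35 against -0.69 over all probes. Ppard, a lipid-sensing nuclear receptor (-2.16), and Srebf2, which drives sterol synthesis (-1.98), had the lowest values. Hnf4a, a nuclear receptor known to bind many apolipoprotein promoters, gave 0.90, 0.85 and 0.80 under the control label and -0.69, -0.79 and -0.75 under the S3d label, a difference of -1.59 (-1.58 under quantile normalization). Gata6, one of the GATA factors of the intestinal epithelium, was at -1.76 (-1.502 under quantile normalization). The values of Hnf4a and Gata6 are given after those of Ppard and Srebf2 because of the motifs shown above, and they were chosen with their values known.

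**Figure D5:**
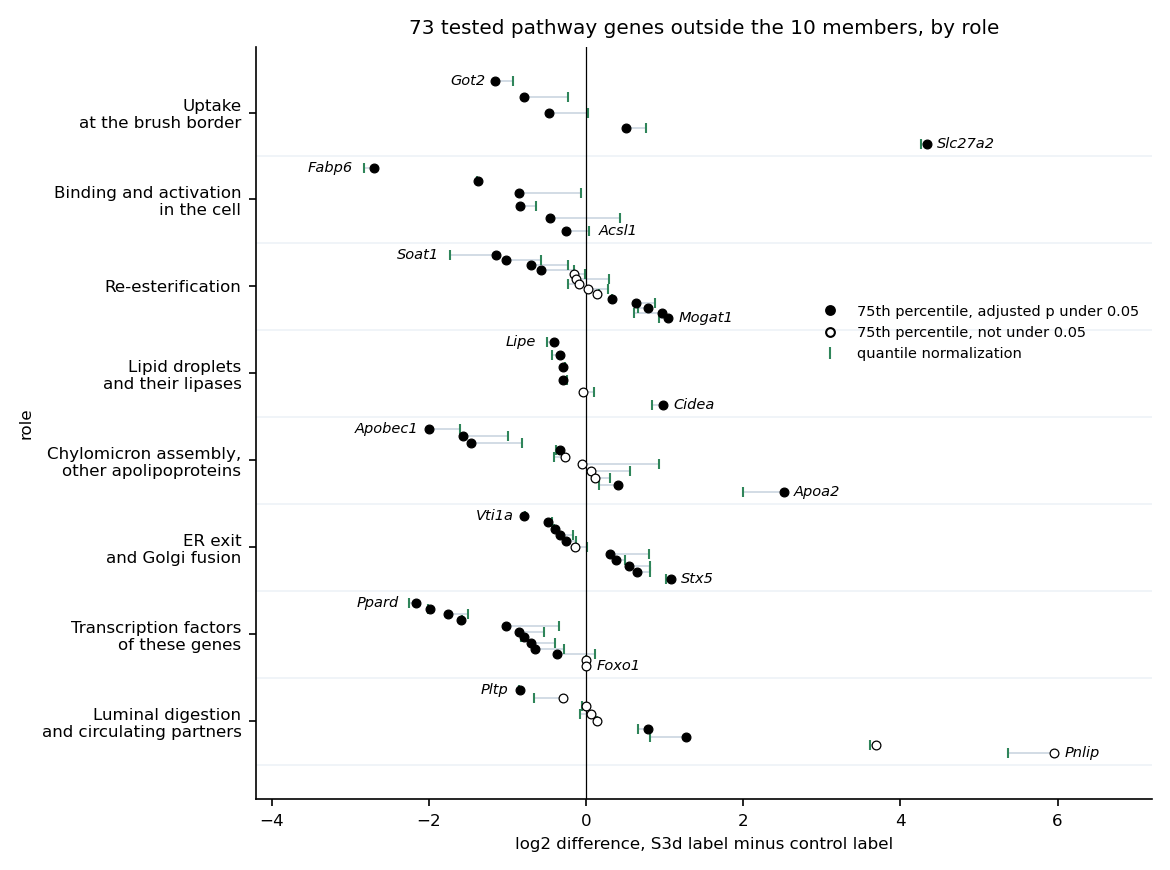
Log2 difference, S3d label minus control label, for the 73 tested pathway genes outside the 10 members, in rows by role. Filled dots passed an adjusted p under 0.05 (limma), open dots did not, and green ticks joined to them give the value of the same gene under quantile normalization. The lowest and the highest gene of each role are named. The transcription factors lie at or left of 0 and the genes of binding and activation all left of it, the other roles lie on both sides, and Pnlip at the far right is open because 1 array alone was high.

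Among luminal enzymes and circulating partners, 2 of 9 tested genes were higher and 1 lower, and without S3d replicate 1 the counts were 4 and 1. Lipc, hepatic lipase, was higher at 1.27 and Gpihbp1, the capillary anchor of lipoprotein lipase, at 0.79. With normexp background correction Lipc was at -1.46 and Gpihbp1 at -0.03, where the median of all probes was -0.69. Pltp, the phospholipid transfer protein, was lower at -0.84. The pancreatic lipase Pnlip stood at 6.67 on S3d replicate 1 and between -7.44 and -5.05 on the other 5, and it did not pass the test.

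Markers of the cells in the tissue moved beside the members. Of 7 tested markers of the villus enterocyte, the cell that makes all 10 members, 5 were lower and 1 higher, and the summed relative signal of the list was 644 to 682 under the control label and 408 to 436 under the S3d label. Under quantile normalization 1 was lower and 2 were higher. The brightest of them, Ada, was at -0.80, and then at 0.18. All 5 tested crypt and proliferation markers were higher, with a summed signal of 19.4 to 20.0 against 31.6 to 33.3, and also under quantile normalization, led in signal by Pcna (0.33). Of all tested genes 35.9% were higher. Median centring called 3 of these crypt markers and normexp background correction 1, all higher. By its own labels the deposited table gave 0 of them higher and 4 lower. Without S3d replicate 1 the enterocyte markers gave 3 lower and 0 higher, and the crypt markers again 5 higher.

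Cd36 is also made by endothelium, adipocytes and macrophages. Of 5 tested endothelial markers 2 were higher and 1 lower, with a summed signal of 6.16 to 7.66 against 7.90 to 8.25, and Kdr, the brightest, was at 0.24 (adjusted p = 0.0663, limma). Of 3 tested adipocyte markers 2 were lower and 0 higher, with a summed signal of 8.35 to 12.1 against 3.11 to 4.997. Cfd, the brightest, was at -1.40, and leptin (Lep) was not well above background. Of 4 tested leukocyte markers 1 was higher and 3 lower (0 and 3 without S3d replicate 1), with a sum of 5.82 to 6.10 against 3.88 to 4.12. Cd68 of macrophages, the brightest, was at -0.50.

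Of the lists of other gut regions, the ileal genes Fabp6 (-2.70) and Slc10a2 (-2.41) were lower and the duodenal iron transport genes Slc40a1 (0.36) and Cybrd1 (0.61) were higher. The signs were the same after quantile normalization or normexp correction. Pdx1, the other gene of that list, differed by 0.16 and did not pass. Their summed signal was 19.4 to 24.2 against 22.7 to 25.5.

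In the remaining lists the goblet cell markers had 2 of 3 lower (Tff3 at -2.08, from 3 control arrays and S3d replicate 1 alone, so that without this array 1 of 2 was lower), the enteroendocrine markers 3 of 5 lower and 1 higher (Chgb at -0.24, not called), and the smooth muscle markers 2 of 5 lower and 1 higher (Actg2 at 0.23, not called). Hepatocyte markers, of which Alb was not well above background, were split with 2 higher and 2 lower (Serpina1, the brightest, at 0.82, and at -0.29 with normexp background correction), at a summed signal under 1 on every array. The pancreatic list summed to 1513 on S3d replicate 1, and its brightest tested gene, Prss1, was at 1.45 (adjusted p = 0.169, limma) from the other 5 arrays. None of the 5 tested genes of that list passed the test (limma), and without S3d replicate 1, 2 were higher and 1 lower. Cpa1 and Cpb1 did not pass the filter on dim probes. Whether a different mix of cells or a different stretch of gut has a part in the members' differences was not tested.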

How the data were processed

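Members and gene lists were chosen with earlier results of these data known. The authors deposited scanner output of Agilent Feature Extraction 10.7.3.1 (array design on rat build rn4), from which the intensity used is the processed signal, background-corrected but not normalized between arrays. A deposited table of log2 values has 6 columns that differ by at most 0.0025 once sorted, so they were quantile-normalized by the authors. How it was made is not given in the sources used here.

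The processed signal was taken to log2 and the 75th percentile of each array was subtracted. Control spots and outlier-flagged spots were dropped, repeated spots averaged, and probes tested where all 3 arrays of 1 group or both were well above background (3621 of them under the S3d label alone, 537 under the control label alone). The S3d and control labels were compared with limma 3.58.1 (lmFit, eBayes, Benjamini-Hochberg) in R 4.3.3, tried first on simulated data. The brightest probe stands for a gene. Python 3.11.15 and matplotlib 3.10.9 drew the plots.

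Probes were named through accessions in the RefSeq table of GRCr8, which named 17512 of 41012. Named are all members, the 2 largest rises and falls of each role past the threshold, the brightest marker of each list, defining markers not above background, and genes pointed out as exceptions. A marker gene is not reported here. Alternatives were other scalings, normexp (offset 50, on the median signal, since no mean signal column is given), other filters, outlier spots kept, the deposited table, replicate block, intensity trend, array weights, the methods' analysis of variance, a 1.5-fold threshold, the mean over probes, and each array left out. The number of arrays limits the precision. No spot used was saturated. No slide holds both groups, so slide was not used as a block.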

Additional observations from a re-analysis of the deposited data

How the results depend on the processing

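The counts of 9 members, 15 member probes, 54 pathway genes and 23104 probes called (limma) held within 1.5 times under most alternatives. Quantile normalization left 5 members called, normexp background correction 1 member, 4 member probes, 6 pathway genes and 1971 probes, and the deposited values 5 members, by their own labels. A 1.5-fold threshold left 34 pathway genes. Of the calls over all probes 53.4% were higher, against 49.6% under quantile normalization, 43.8% under median centring, 98.1% without scaling and 30.1% with normexp. Signs of brightest-probe differences turned as follows. Quantile normalization gave Apob 0.74, Mttp 0.026, Fabp2 0.19 and Mogat2 0.023. No scaling, which puts the median of all probes at 1.93, gave values above 0 but under that median, with Apoa1 0.33, Apoa4 0.36, Apob 1.72, Apoc3 0.70, Mttp 1.28, Fabp1 0.21, Fabp2 0.77, Dgat1 0.65 and Mogat2 1.56. Normexp, which puts the median of all probes at -0.69, gave Apob 0.34 and Mogat2 0.29. The deposited table, whose labels are opposite to those of the scanner files, gave Apoa1 0.11, Apoc3 0.46, Fabp1 0.24, Dgat1 0.28 and Cd36 -1.75. Averaging the probes of each gene gave Mttp 0.10 and took Apob to -2.44 (adjusted p = 0.000879). The cause was not tested.

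Leaving out each array in turn gave 9 members each time, 14 to 15 member probes, 51 to 55 pathway genes and 21241 to 22596 probes. The brightest Apob probe could not be fitted without S3d replicate 3, its only array of that label. Same-numbered samples did not deviate together (correlations of 0.02, 0.03 and -0.06 across probes), so the numbers were not taken to pair samples. With the replicate block 9 members, 15 member probes, 52 pathway genes and 21899 probes were called.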
